A study of Mus musculus with 28 samples.

Results

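The genes described here are 9 that build the node of Ranvier and the paranodes beside it, namely Gldn, Nrcam, Nfasc, Cntn1, Cntnap1, Ank2, Ank3, Sptbn1 and Ezr. They were chosen by name and looked up by Ensembl identifier among the 41605 gene identifiers of a raw count table of mouse peripheral nerve, and all 9 were among the 17700 genes that passed a filter on low counts. The table covers 28 bulk poly-A RNA libraries of C57BL/6J mice, 4 at each of 7 stages. These are labelled embryonic day (E) 13, E17, postnatal day (P) 1, P5, P14, P24 and P60. The labels shorten the embryonic ages, and the study places both embryonic groups a fraction of a day later than these whole days. All groups are untreated and of 1 strain, so the comparisons are between ages. The study describes the E13 samples as various nerves distal to the dorsal root ganglia of 2 embryos each, the E17 samples as sciatic nerves of 2 embryos each and the postnatal samples as sciatic nerves of 1 mouse each. The outer sheaths were stripped off from E17 on and not at E13, the animals were not perfused, and each stage held samples of both sexes, which the labels do not assign to libraries. Stage, nerve type and dissection therefore cannot be told apart between E13 and E17.

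Nodes of Ranvier are the short gaps in the myelin sheath at which the axon carries its clustered sodium channels. In peripheral nerve the Schwann cell sends microvilli over the node and deposits gliomedin there, which binds the cell adhesion molecules neurofascin and NrCAM on the axon. On either side, at the paranode, loops of myelin attach to the axon through a glial form of neurofascin that faces contactin-1 and Caspr on the axon, and ankyrins and spectrins tie these membrane complexes to the cytoskeleton. The cell bodies of the neurons lie outside the nerve, whereas those of the Schwann cells lie within it.

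Levels are in CPM, which are counts scaled to a common library total after adjustment by the trimmed mean of M values (TMM), and each mean stands with the SD of the 4 libraries of its stage. Log2 fold changes are given with their standard error from 1 edgeR quasi-likelihood fit over all 28 libraries, and a gene was called where the p adjusted by Benjamini-Hochberg for all 17700 tested genes fell below 0.05 and the change was 2-fold or more. The library totals ran from 13899895 to 37662780 counts. Bulk values do not tell fewer cells of a type from less RNA per cell.

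Both genes with the largest changes, Gldn and Nfasc, are shown here with their start regions, because they rose together between E17 and P5. Each sequence is a RefSeq promoter window on GRCm38.p6, 250 bases before to 50 after a transcript start, written along the transcript's strand. The table of promoters held 14 windows for 7 of the 9 genes and none for Cntnap1 and Ank3. Matches to ACAAAG, the core letters bound by Sox factors, and to GCGNGGGCG, the consensus letters of Egr factors, were searched on both strands and are printed in capitals. Gldn starts at chr9:54286236-54286535, plus strand. Nfasc has an upstream start at chr1:132707277-132707576 and a downstream start at chr1:132642809-132643108, both minus strand. Both lie inside the annotated gene, whose first base on this strand is 132741797, and no window reached that end.
Gldn: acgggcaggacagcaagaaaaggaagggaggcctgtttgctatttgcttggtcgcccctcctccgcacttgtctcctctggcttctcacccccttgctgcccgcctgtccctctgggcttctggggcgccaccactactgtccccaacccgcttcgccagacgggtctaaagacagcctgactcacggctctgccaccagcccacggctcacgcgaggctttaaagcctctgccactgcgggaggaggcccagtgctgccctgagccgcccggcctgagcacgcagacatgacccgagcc
Nfasc, upstream start: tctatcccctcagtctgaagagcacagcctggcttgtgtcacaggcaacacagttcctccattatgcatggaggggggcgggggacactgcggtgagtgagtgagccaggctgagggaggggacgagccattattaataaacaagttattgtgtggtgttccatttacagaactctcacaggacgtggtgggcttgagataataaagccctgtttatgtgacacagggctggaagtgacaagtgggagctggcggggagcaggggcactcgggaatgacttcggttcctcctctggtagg
Nfasc, downstream start: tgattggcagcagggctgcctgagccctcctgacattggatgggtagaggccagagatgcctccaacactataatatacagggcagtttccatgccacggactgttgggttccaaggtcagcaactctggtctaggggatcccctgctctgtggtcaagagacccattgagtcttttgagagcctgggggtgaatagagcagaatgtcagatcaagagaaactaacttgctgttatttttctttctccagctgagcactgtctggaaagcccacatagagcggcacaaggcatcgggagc
Sptbn1, at chr11:30219723-30220022, minus strand, shown because it holds a match: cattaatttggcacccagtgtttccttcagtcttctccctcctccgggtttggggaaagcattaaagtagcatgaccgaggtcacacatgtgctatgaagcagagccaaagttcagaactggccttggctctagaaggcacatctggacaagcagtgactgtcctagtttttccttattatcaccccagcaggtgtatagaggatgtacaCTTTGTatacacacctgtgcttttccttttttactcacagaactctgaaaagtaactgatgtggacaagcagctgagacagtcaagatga
None of the 3 windows of Gldn and Nfasc held either run of letters. The Sptbn1 window shown held ACAAAG on the opposite strand, starting 40 bases before the transcript start. Another Sptbn1 window, at chr11:30198208-30198507, held it on the opposite strand 168 bases before the start. An Ank2 window, at chr3:127499066-127499365, held ACAAAG 191 bases before the start and the only GCGNGGGCG match, on the opposite strand, 159 bases before it. Over the 14 windows of the 9 genes, ACAAAG was present in 3 and GCGNGGGCG in 1. Over all 32851 windows of the table, ACAAAG was present in 18.7% and GCGNGGGCG in 5.55%.

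E13 replicate 1, E13 replicate 4 and P1 replicate 1 stood apart from the other libraries of their stage in how counts followed GC content. Their trends were -0.93, 0.73 and -0.43 log2 units per 10 points of GC. The summed level of 6 Schwann cell markers was 191 to 378 CPM at E13, 2889.8 to 3245 at E17, 9247 to 17946 at P1 and 57692 to 73190.1 at P14, with no marker of the list at 0. The summed level of 10 neuron markers was 1694 to 3251 CPM at E13, 123 to 170.2 at E17, 29.0 to 40.2 at P14 and 92.1 to 109.9 at P60, and 4 of them, Rbfox3, Elavl3, Elavl4 and Isl1, averaged under 1 CPM at every postnatal stage. At E13 the libraries also held 3648 to 22015 CPM of 4 erythroid markers, 3 of them embryonic globins, and 35.8 to 723 CPM of 6 skeletal muscle markers, against 21.3 to 43.1 and 7.61 to 30.3 at E17. The highest erythroid sum was that of E13 replicate 4 alone, with 3648 to 6463 CPM in the others, and the highest muscle sum that of E13 replicate 2 alone, with 35.8 to 61.8 CPM in the others. Alas2, the erythroid marker that is not a globin, was at 45.3 to 320.2 CPM at E13 and 16.2 to 34.1 CPM at E17. The sum of 4 perineurial markers was 76.9 to 108 CPM at P1 and 304 to 569 CPM at P60, and that of 4 pericyte and smooth muscle markers was 162 to 178 CPM at P1 and 537 to 588 CPM at P60. P24 replicate 2 held 146 CPM of the perineurial markers against 333 to 432 in the other P24 libraries, and 3294 CPM of 4 mesenchymal markers against 5832 to 6333. The part of the marker differences in the results below was not tested. For the GC trends, fits with the trend removed or with those libraries left out are among the alternatives.

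**Figure D1:**
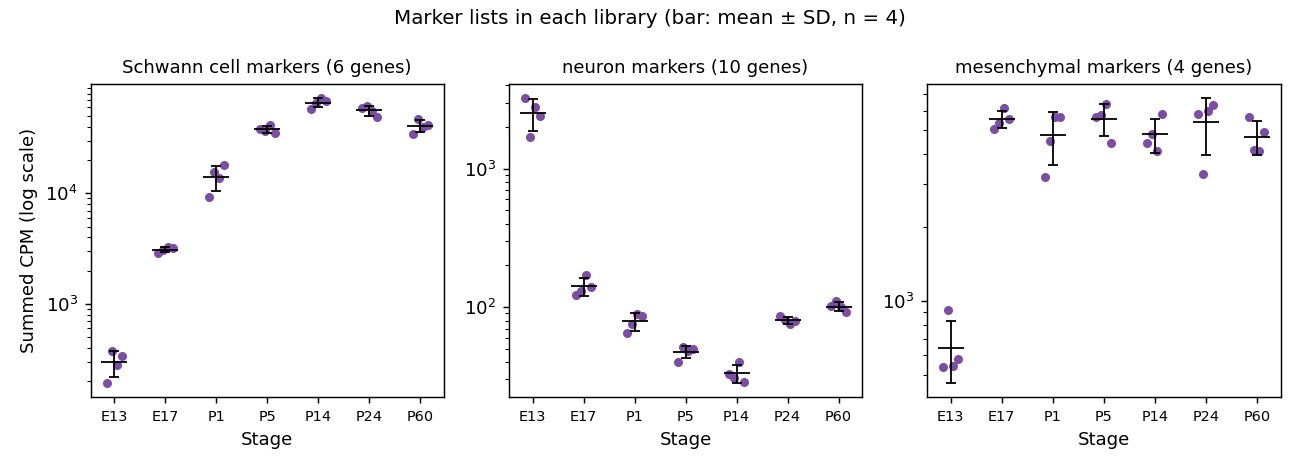
Summed CPM (logarithmic vertical axis) of the Schwann cell, neuron and mesenchymal marker lists in each of the 28 libraries by stage, with the mean and SD of 4. The neuron markers at E13 lie at 1694 to 3251 CPM, above every later library, the Schwann cell markers reach 57692 to 73190.1 CPM at P14, and the mesenchymal markers lie at 537 to 915 CPM at E13 and 5064 to 6139.9 CPM at E17.

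All 9 genes were called in the test of all stages together, in which 70% of all tested genes were called. They did not follow 1 course. Gldn and Nfasc rose steeply around birth and stayed high, and Nrcam had its highest mean at P5. Cntn1 was highest at E17 and Ezr at P1, each with lower means at every later stage. Ank3 and Sptbn1 had their highest means at P60, which did not differ beyond the spread from E17 for Ank3 and from P24 for Sptbn1. Ank2 stayed between 166 and 225 CPM after birth, and Cntnap1 was low at every stage.

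**Figure D2:**
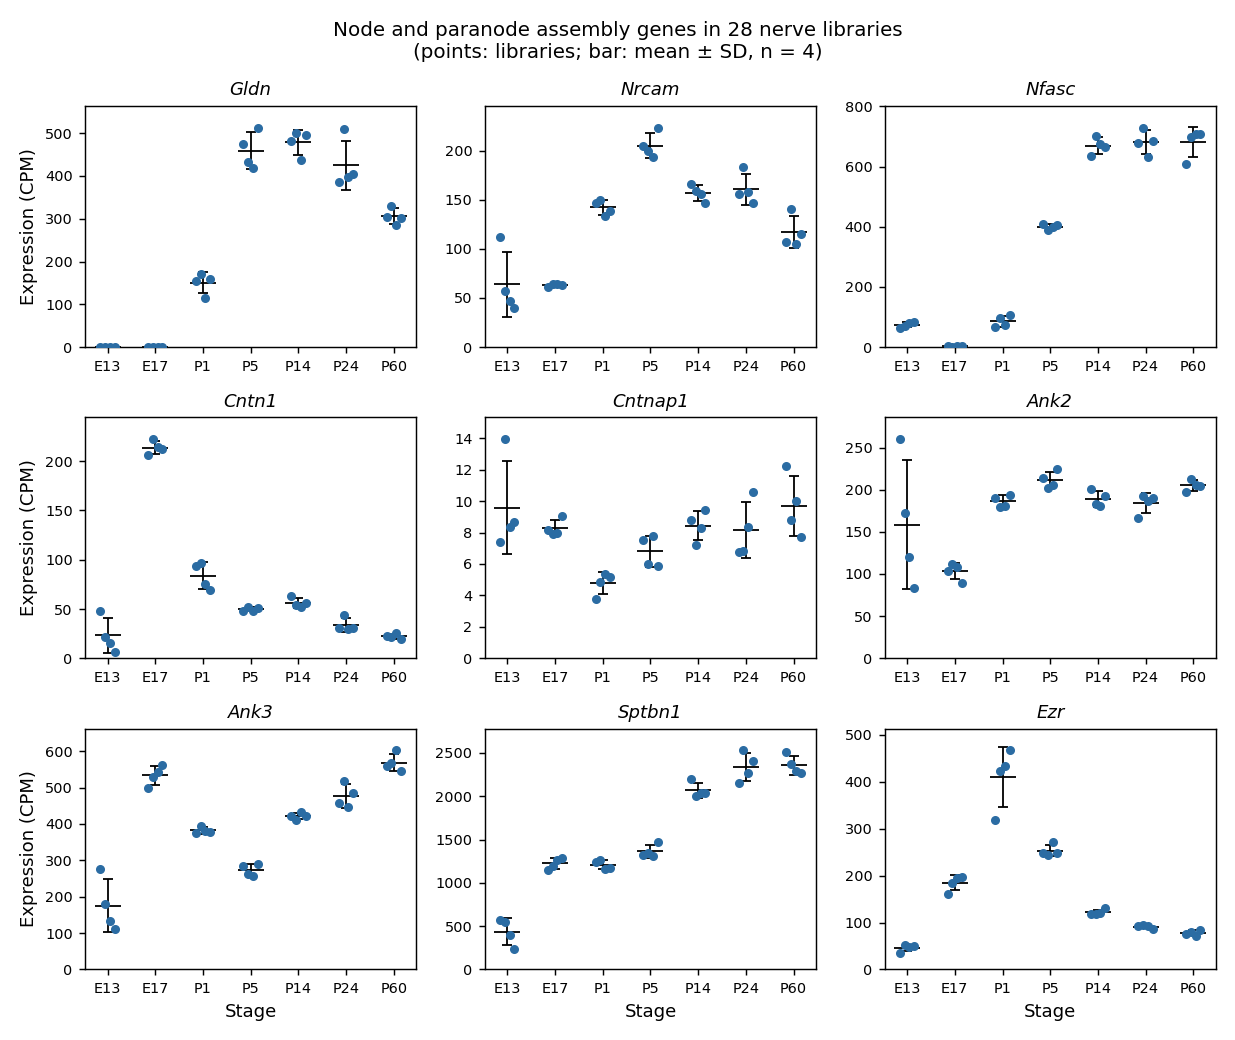
Expression (CPM) of the 9 genes at 7 stages, with a point for each library and a bar for the mean ± SD of 4. Gldn lies under 2 CPM before birth and at 438 to 501 CPM at P14, Nfasc drops to 1.48 to 2.48 CPM at E17, and Ezr peaks at P1.

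Gldn, which encodes gliomedin, the Schwann cell ligand that clusters the axonal adhesion molecules at the node, lies at chr9:54286486-54341786 on the plus strand in 10 exons. The 4 E13 libraries held 0.596, 0.686, 0.686 and 0.316 CPM and the 4 E17 libraries 0.385, 0.634, 0.466 and 1.32 CPM, which rest on 6 to 19 and 7 to 21 counts. The P1 libraries held 155, 171, 115 and 159.9 CPM. No library overlapped between E17 and P1. The rise from E17 to P1 was 7.80 ± 0.23 log2 units (adjusted p = 1.5e-19), from 0.701 ± 0.425 to 150.4 ± 24.4 CPM. The summed Schwann cell markers were also higher at P1 in every library, a sum carried by the myelin genes Mbp (1117 ± 73.8 and 7756 ± 2580.1 CPM at E17 and P1) and Prx (577 ± 47.5 and 3697 ± 996 CPM). Sox10, which marks Schwann cells at all of these ages, was at 297 to 348 CPM at E17 and 209 to 419 CPM at P1, and these groups overlapped. The part of the markers in the rise was not tested.

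Gldn went on rising to P5, where the libraries held 475, 432, 418 and 512 CPM, 1.61 ± 0.16 log2 units above P1 (adjusted p = 3.1e-08). At P14 they held 481, 501, 438 and 495 CPM, at P24 386, 510.4, 398 and 406 CPM and at P60 304, 330.3, 285 and 302 CPM. The order of the stage means was P14, P5, P24, P60, P1, E17 and E13. P14, P5 and P24 did not differ from their neighbours in that order beyond the spread (adjusted p = 0.82 and 0.61), nor did E17 and E13 (adjusted p = 0.57). From P24 to P60 Gldn fell by 0.48 ± 0.16 log2 units (adjusted p = 0.038), short of the 2-fold limit, and all 4 P60 libraries were below all 4 P24 libraries. P60 lay 1.02 ± 0.16 log2 units above P1 (adjusted p = 3.4e-06). That change sits at the 2-fold limit, and it was 0.92 without P1 replicate 3, 0.98 without P60 replicate 2, 0.83 with library totals only in place of TMM and 0.95 without the filter on low counts, each under the limit.

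Nfasc encodes neurofascin, whose glial form lies at the paranode and whose neuronal form lies at the node. Counts per gene do not separate these forms. The gene lies at chr1:132564690-132741797 on the minus strand. The E13 libraries held 64.6, 70.8, 79.5 and 82.3 CPM and the E17 libraries 2.25, 1.48, 2.48 and 2.39 CPM. No library overlapped between these stages, and Nfasc fell by 5.10 ± 0.16 log2 units (adjusted p = 2.9e-19). The neuron markers fell between the same libraries, and their part in this fall was not tested. At P1 Nfasc was back at 67.6, 96.3, 71.9 and 107 CPM, a rise of 5.31 ± 0.16 log2 units from E17 (adjusted p = 1.7e-19), and P1 and E13 did not differ beyond their spread (adjusted p = 0.15). The neuron markers at P1 summed to 64.9 to 89.7 CPM.

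The P5 libraries held 408, 389, 399.7 and 405 CPM of Nfasc, 2.22 ± 0.13 log2 units above P1 (adjusted p = 1.9e-12). The P14 libraries held 635, 702, 673 and 664 CPM, all above the P5 libraries, with a change of 0.74 ± 0.13 log2 units (adjusted p = 5.5e-05) that did not reach 2-fold. Thereafter the gene stayed level, at 679, 727, 630.2 and 685 CPM at P24 and 607, 698, 709 and 709 CPM at P60. The 3 highest stages, P60, P24 and P14, overlapped and did not differ beyond their spread (adjusted p = 1 and 0.98). P60 exceeded P1 by 2.99 ± 0.14 log2 units (adjusted p = 2.1e-16), the largest rise over this interval among the 9 genes.

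Nrcam encodes the L1 family adhesion molecule that is held at the node together with gliomedin and neurofascin, and lies at chr12:44328885-44601964 on the plus strand. At E13 its libraries held 113, 57.1, 46.7 and 40.0 CPM and at E17 60.8, 64.0, 64.5 and 62.9 CPM. The highest E13 value was that of replicate 1, a library with a GC trend. The change to E17 was -0.03 ± 0.19 log2 units (adjusted p = 0.91) with that library and 0.38 (adjusted p = 0.0020) without it. At P1 the libraries held 147, 150.0, 134 and 139 CPM, all above the E17 libraries, a rise of 1.17 ± 0.19 log2 units (adjusted p = 2.3e-05). The highest mean was at P5, with 204, 199, 193 and 223 CPM, all above the P1 libraries, by 0.53 ± 0.19 log2 units (adjusted p = 0.0496, and 1.1e-05 when E13 was left out of the fit), short of 2-fold. The P14 libraries held 166, 159, 155 and 147 CPM, all below the P5 libraries, with a change of -0.39 ± 0.19 log2 units (adjusted p = 0.12, and 2.2e-04 without E13). The P24 libraries held 156, 183, 158 and 146 CPM and the P60 libraries 107, 141, 105 and 115 CPM. The P60 libraries were all below the P24 libraries, with a change of -0.46 ± 0.19 log2 units (adjusted p = 0.1, and 7.2e-05 without E13). In the order of the postnatal means, P5, P24, P14, P1 and P60, neighbours in the fit of all stages did not differ beyond their spread (adjusted p = 0.14 to 0.98), though P60 against P1 gave 0.0024 without E13.

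Cntn1 encodes contactin-1, the axonal partner of glial neurofascin at the paranode, and lies at chr15:92051165-92341967 on the plus strand. The E13 libraries held 48.4, 21.8, 16.0 and 6.53 CPM, highest in replicate 1 and lowest in replicate 4, the libraries with the GC trends, and the E17 libraries 206, 222, 214 and 213 CPM. The rise to E17 was 3.20 ± 0.32 log2 units (adjusted p = 1.8e-09) and no library overlapped. It was 3.39 with the GC trend removed and 3.51 with the 3 libraries left out. The neuron markers fell over this step, and their part in the level of Cntn1 was not tested.

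From E17 to P1 Cntn1 fell by 1.35 ± 0.30 log2 units (adjusted p = 8.6e-04), to 93.9, 96.5, 75.2 and 69.0 CPM. The P5 libraries held 47.8, 51.9, 48.3 and 51.4 CPM, the P14 libraries 63.4, 54.3, 52.0 and 55.8 CPM, the P24 libraries 31.1, 44.4, 29.4 and 30.6 CPM and the P60 libraries 22.2, 21.4, 25.7 and 19.6 CPM. From P1 to P60 it fell by 1.91 ± 0.31 log2 units (adjusted p = 5.3e-06). All P5 libraries were below all P1 libraries, all P24 libraries below all P14 libraries and all P60 libraries below all P24 libraries. The adjusted p-values of these falling steps were 0.082, 0.18 and 0.19 in the fit with all stages, in which the spread at E13 counts, and 3.3e-06, 4.7e-05 and 3.0e-04 when E13 was left out. In the other direction, all P14 libraries were above all P5 libraries, with a change of 0.18 ± 0.29 log2 units (adjusted p = 0.71). None of these 4 steps reached 2-fold in either fit.

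Cntnap1 encodes Caspr, which binds contactin-1 in the axonal membrane of the paranode, and lies at chr11:101170523-101190724 on the plus strand. It shares 233 exon bases with Plekhh3 on the opposite strand, and whether the counting used strand is not stated, so its low values are uncertain. The E13 libraries held 7.39, 13.9, 8.34 and 8.68 CPM, the E17 libraries 8.19, 7.92, 7.95 and 9.05 CPM and the P1 libraries 3.79, 4.83, 5.36 and 5.15 CPM. All P1 libraries were below all E17 libraries, with a change of -0.79 ± 0.19 log2 units (adjusted p = 0.0023). The P5 libraries held 7.54, 5.99, 7.79 and 5.87 CPM and the P14 libraries 8.79, 7.23, 8.29 and 9.42 CPM. At P24 they held 6.78, 6.85, 8.35 and 10.6 CPM and at P60 12.2, 8.78, 10.01 and 7.72 CPM. In the fit of all stages no neighbours in the order of its stage means differed beyond their spread, while P5 and P1, neighbours in that order, had an adjusted p of 0.067 in this fit and 0.019 when E13 was left out. P60 was 1.01 ± 0.19 log2 units above P1 (adjusted p = 5.1e-05), and no library overlapped. This call too sits at the 2-fold limit. The change was 0.95 without P1 replicate 1, 0.88 without P60 replicate 1 and 0.995 without P60 replicate 3, each under the limit. It was 0.82 with library totals only, 0.90 in limma-voom, 0.94 without the filter and 0.94 with the 3 GC-trend libraries left out, again under it.

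Ank3 encodes ankyrin-G, which anchors sodium channels and neurofascin at the axonal node, and lies at chr10:69398773-70027438 on the plus strand. Its level was 277, 179, 134 and 112 CPM at E13 and 499, 529.8, 544 and 562 CPM at E17. Ank3 rose by 1.60 ± 0.16 log2 units (adjusted p = 2.2e-09) and no library overlapped. It then stood at 376, 395, 379 and 377 CPM at P1 and 286, 263, 257 and 289.9 CPM at P5, with successive changes of -0.48 ± 0.16 and -0.48 ± 0.16 log2 units (adjusted p = 0.021 and 0.034). From this low point it rose by 0.62 ± 0.16 log2 units to 421, 412, 433 and 420.4 CPM at P14 (adjusted p = 0.0035). The P24 libraries held 456, 519, 448 and 484 CPM and the P60 libraries 560.3, 567, 602 and 545 CPM. All P24 libraries were above all P14 libraries, and all P60 libraries above all P24 libraries. These changes were 0.18 ± 0.16 and 0.25 ± 0.16 log2 units (adjusted p = 0.69 and 0.32, and 0.027 and 7.2e-04 without E13). All P60 libraries were above all P1 libraries, by 0.57 ± 0.16 log2 units (adjusted p = 0.0026). Its P60 and E17 libraries overlapped, and these stages, the highest means, did not differ beyond their spread (adjusted p = 0.63). No step of Ank3 between successive stages after E17 reached 2-fold, nor did P60 against P1, and P60 against P5 was not tested.

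Ank2 encodes ankyrin-B, which is known from the Schwann cell side of the paranode, and lies at chr3:126921612-127499350 on the minus strand. The E13 libraries held 259.8, 172, 120.1 and 83.1 CPM, again highest in replicate 1 and lowest in replicate 4, and the E17 libraries 103, 112, 109 and 89.9 CPM. The P1 libraries held 191, 179, 180.3 and 194 CPM, all above the E17 libraries, by 0.85 ± 0.19 log2 units (adjusted p = 8.9e-04). Over the later stages every library lay between 166 and 225 CPM. The stage means were 212 ± 9.76 CPM at P5, 189 ± 9.36 CPM on P14, 184 ± 12.0 CPM on P24 and 205 ± 6.65 CPM on P60. All P5 libraries lay above all P1 libraries, all P14 libraries below all P5 libraries and all P60 libraries above all P24 libraries. These changes had adjusted p-values of 0.56, 0.56 and 0.65 in the fit of all stages and 0.062, 0.054 and 0.0504 without E13. Ank2 was called in none of the 7 comparisons of 2 stages by edgeR, limma-voom or the DESeq2 Wald test. It was the only 1 of the 9 genes without a call in edgeR, while in limma-voom Cntnap1 had none either. In the fit of all stages the changes of Ank2 had unadjusted p-values under 0.05 only between E13 and E17 and between E17 and P1.

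Sptbn1 encodes beta-II spectrin, the spectrin of the paranodal and internodal membrane skeleton, and lies at chr11:30099395-30268175 on the minus strand. At E13 it stood at 573, 548, 396 and 231 CPM and at E17 at 1153, 1195, 1268 and 1283 CPM, a rise of 1.49 ± 0.16 log2 units (adjusted p = 1.0e-08) without overlap. The P1 libraries held 1236, 1268, 1155 and 1176 CPM and the P5 libraries 1320.0, 1349.6, 1306 and 1475 CPM. At P14 they held 2200.5, 1998, 2035 and 2033 CPM, all above P5, by 0.60 ± 0.16 log2 units (adjusted p = 0.0051). The level at P24 was 2152, 2528, 2272 and 2407 CPM and at P60 2508, 2371, 2287 and 2265 CPM, and these neighbours did not differ beyond their spread (adjusted p = 0.99). P60 exceeded P1 by 0.96 ± 0.16 log2 units (adjusted p = 8.9e-06), just under 2-fold. It passed that limit, at 1.00, with DESeq2 size factors, in the DESeq2 Wald test, without P1 replicate 1 and without the 3 GC-trend libraries.

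Ezr encodes ezrin, which links actin to the membrane in the Schwann cell microvilli at the node, and lies at chr17:6738041-6782784 on the minus strand. Its level at E13 was 35.6, 51.4, 47.3 and 49.5 CPM, while the E17 libraries held 162, 185, 195 and 198 CPM and the P1 libraries 318, 424, 434 and 467 CPM. Both steps were without overlap, with rises of 2.01 ± 0.12 and 1.15 ± 0.11 log2 units (adjusted p = 3.5e-14 and 5.8e-09). Ezr then fell in each step to P24. From P1 to P5 it fell by 0.70 ± 0.11 log2 units (adjusted p = 4.1e-05), to 249, 244, 271 and 248 CPM. It fell by 1.06 ± 0.11 log2 units to P14 (adjusted p = 3.5e-08), where the libraries held 117, 119, 120.3 and 131 CPM. The P24 libraries held 92.2, 94.0, 92.8 and 85.6 CPM, again lower (adjusted p = 0.022), and the P60 libraries 76.0, 80.3, 71.3 and 84.1 CPM. All P60 libraries were also below all P24 libraries, but this last step of -0.23 ± 0.11 log2 units did not pass the test (adjusted p = 0.19). From P1 to P60 Ezr fell by 2.40 ± 0.12 log2 units (adjusted p = 7.4e-16), the largest postnatal fall among the 9 genes.

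Between E13 and E17, 5 of the 9 genes were called, Cntn1, Ank3, Sptbn1 and Ezr higher and Nfasc lower, where 35.5% of all tested genes were called. Between E17 and P1, 5 were called, Gldn, Nfasc, Nrcam and Ezr higher and Cntn1 lower, against 11.7% of all genes, and 8 had no overlap between the 4 and 4 libraries, against 38.2% of all genes. Between P1 and P5, 2 were called, Gldn and Nfasc, both higher, against 5.84%, although all 9 had no overlap between the stages, against 30.4%. Between P5 and P14, Ezr alone was called, lower, which is 1 of 9 against 12% of all genes.

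Neither of the single steps after P14 held a call, and P60 against P14 was not tested. Between P14 and P24 the count of called genes was 0 of 9 by edgeR's quasi-likelihood test, by limma-voom and by the DESeq2 Wald test, with 2 of 9 at an unadjusted p under 0.05, and 2.65% of all genes were called. Between P24 and P60 it was likewise 0 of 9 by each of these tools. Of the 9, 2 had an unadjusted p under 0.05, and 5.96% of all genes were called. With E13 left out of the fit, Gldn, Nrcam, Cntn1 and Ank3 passed an adjusted p of 0.05 in this step (0.0045, 7.2e-05, 3.0e-04 and 7.2e-04). Between P14 and P24 Cntn1, Ank3, Sptbn1 and Ezr passed it in that fit (4.7e-05, 0.027, 0.040 and 0.0011). The remaining members of each step did not, and none of these changes reached 2-fold. The share of all genes in that fit is not given here. Over the whole postnatal period, P60 against P1, 5 were called, Gldn, Nfasc and Cntnap1 higher and Cntn1 and Ezr lower, a share of 55.6% against 35.5% of all genes. With library totals only, or without the filter on low counts, 3 of these 5 remained, since Gldn and Cntnap1 fell under the 2-fold limit. The summed Schwann cell, neuron, perineurial, pericyte and smooth muscle, endothelial and immune markers were each higher in every P60 library than in every P1 library, at 34794 to 46965 CPM at P60 for the Schwann cell list, and their part in these calls was not tested.

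**Figure D3:**
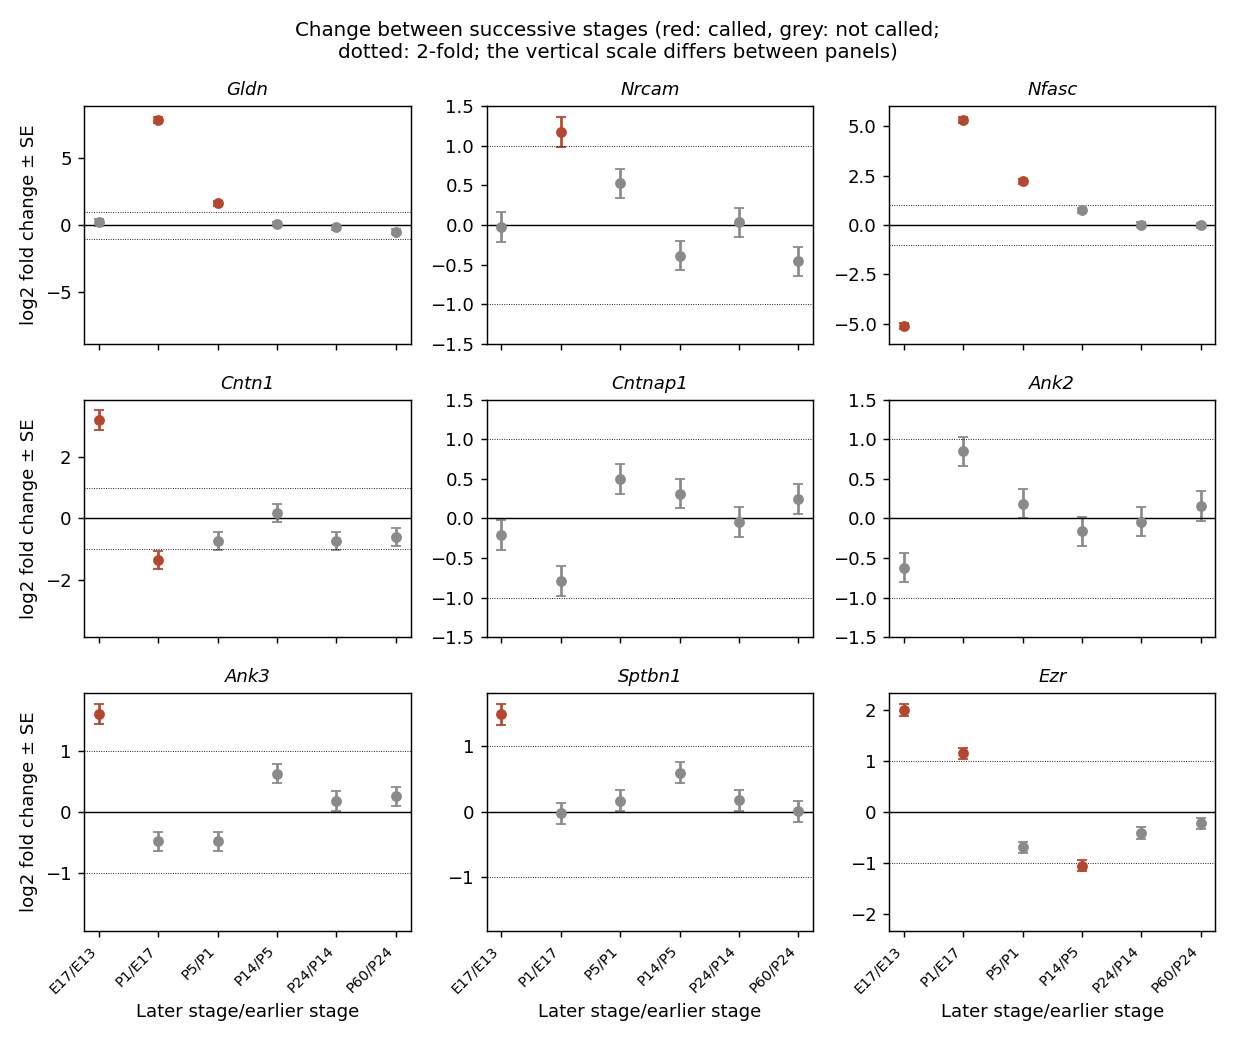
Log2 fold change ± standard error of each gene between successive stages, in red where called and grey where not, with dotted lines at 2-fold and a vertical scale that differs between panels. The largest changes are those of Gldn and Nfasc between E17 and P1, at 7.80 ± 0.23 and 5.31 ± 0.16, and no point after P14 against P5 is red.

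Compared per kilobase of exon, the order of the genes changed with age. At P1 Ezr had the highest level, 125 ± 19.6 CPM per kilobase, above Sptbn1 at 69.1 ± 3.00 and Gldn at 32.3 ± 5.24. At P14 Sptbn1 stood at 118 ± 5.19, Gldn at 103 ± 6.16, Nfasc at 47.3 ± 1.97 and Ezr at 37.0 ± 1.83 CPM per kilobase. At P60 the levels per kilobase were 135 ± 6.29 for Sptbn1, 65.6 ± 3.99 for Gldn, 48.1 ± 3.50 for Nfasc, 23.7 ± 1.68 for Ezr, 16.3 ± 0.691 for Ank3, 8.76 ± 1.22 for Nrcam, 5.86 ± 0.19 for Ank2, 2.36 ± 0.274 for Cntn1 and 1.65 ± 0.328 for Cntnap1. Lengths are the merged exons of all annotated transcripts, so a gene with long unused exons would be set too low. Which exons were used was not tested, for the ankyrin genes or any other. Cntn1 and Cntnap1 were the lowest of the 9 on this scale at P60, whereas at E17 Cntn1 had stood at 22.7 ± 0.702 CPM per kilobase, and at P1 at 8.87 ± 1.44, beside Nfasc at 6.07 ± 1.36 and Ank2 at 5.32 ± 0.211.

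Within a library the ratio of the counts of 2 genes does not depend on how libraries are scaled, and 4 such ratios were compared between P1 and P60 by exact permutation, two-sided, with 4 libraries on each side. All 4 ratios were higher at P60 without overlap, and the exact test gave p = 0.029 for each, the lowest value open to groups of this size, which adjustment over the 4 ratios left at 0.029. Exon lengths differ between genes, so only changes of a ratio are read. The log2 ratio of Gldn to its binding partner Nrcam was 0.07 ± 0.20 at P1 and 1.39 ± 0.12 at P60, a difference of 1.32, and had been -6.60 ± 0.75 at E17. That of Nfasc to Nrcam went from -0.75 ± 0.32 to 2.55 ± 0.19, a difference of 3.30. That of Cntnap1 to Cntn1, the axonal pair of the paranode, went from -4.12 ± 0.42 to -1.21 ± 0.23, a difference of 2.91. That of Ank3 to Ank2 went from 1.04 ± 0.08 to 1.47 ± 0.07, a difference of 0.43.

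The course of the ratios between these ages was not uniform. Gldn to Nrcam was at its highest at P14, at 1.61 ± 0.12. Ank3 to Ank2 was at 2.37 ± 0.18 at E17 and at 0.37 ± 0.04 at P5, above and below its P1 value. Cntnap1 to Cntn1 at E13, -0.97 ± 1.30, spread from -2.71 to 0.41 over the 4 libraries and overlapped the P60 values. The lowest and the highest of these were replicates 1 and 4, the E13 libraries with GC trends, and the part of those trends was not tested.

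**Figure D4:**
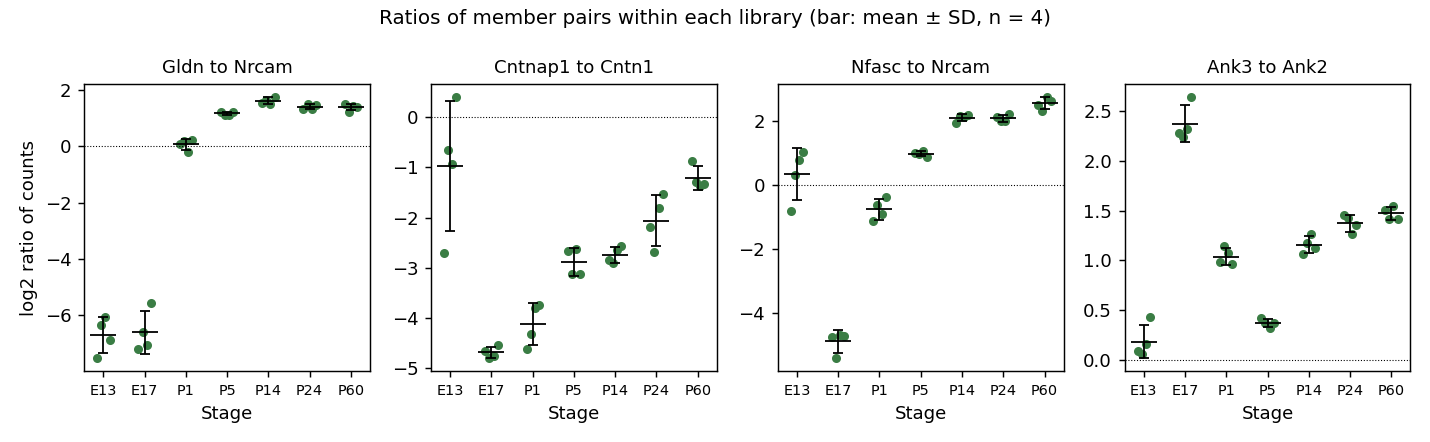
Log2 ratio of the counts of 4 gene pairs within each library by stage, with the mean and SD of 4. All 4 ratios lie higher at P60 than at P1, by 1.32, 2.91, 3.30 and 0.43 log2 units in the order of the panels.

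A further 44 genes of nodes, paranodes and the neighbouring juxtaparanodes were set beside the 9, in 5 lists. Between P1 and P60, 15 of the 44 were called, 9 higher and 6 lower, a share of 34.1% beside 35.5% of all genes, and their median change was 0.15 log2 units beside -0.02 for all genes. Between E17 and P1, 11 of 44 were called, a share of 25% beside 11.7%. Between P1 and P5, 6 of 44 were called, 13.6% beside 5.84%, and 3 without P5 replicate 1.

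Of 10 nodal ion channel genes, 7 were called between P1 and P60, 5 of them higher and 2 lower, with a median of 0.95 log2 units. Scn8a, the sodium channel subunit of mature nodes, rose from 11.1 ± 1.02 to 22.9 ± 2.40 CPM (1.05 ± 0.15 log2 units, adjusted p = 8.6e-07), and Scn9a, a sodium channel of sensory and sympathetic neurons, fell by 3.42 ± 0.58 log2 units (adjusted p = 1.0e-05), from 10.7 ± 1.76 to 0.982 ± 0.34 CPM. Kcnk2, a leak potassium channel, was at 23.6 ± 1.66 and 26.4 ± 2.49 CPM (adjusted p = 0.36).

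Of 7 other spectrin, ankyrin and protein 4.1 genes, Sptb and Ank1 were called higher and Epb41l3 lower, with a median of 0.61 log2 units. Sptb, which encodes the beta spectrin best known from red cells and muscle, had 0.687 to 1.70 CPM at E17 and 9.15 to 17.9 CPM at P1. It was called higher in each of the 3 steps from E17 to P14, rising to 134 to 153 CPM at P5 (adjusted p = 6.4e-10) and 441 to 509.8 CPM at P14 (adjusted p = 7.2e-06), and at P60 held 869 to 1089 CPM, 6.18 ± 0.31 log2 units above P1 (adjusted p = 1.4e-15). At P60 the 6 skeletal muscle markers summed to 2.05 to 5.41 CPM and Alas2, the only erythroid marker of the list that is not an embryonic globin, stood at 0.808 to 1.53 CPM. No adult globin was on the list, and the part of blood in the rise was not tested. Epb41l3, which encodes the protein 4.1 of the paranode and internode, fell by 2.86 ± 0.16 log2 units (adjusted p = 2.2e-14), from 282 ± 7.71 to 38.9 ± 5.05 CPM. Sptan1, which encodes the alpha-II spectrin that pairs with beta spectrins, went from 893 ± 64.7 to 1363 ± 53.6 CPM (0.61 ± 0.09 log2 units, adjusted p = 6.7e-07), short of 2-fold. Epb41l2, the protein 4.1 gene of Schwann cells, was at 1106 ± 88.7 CPM at P1, 1727 ± 59.7 at P5 and 1075 ± 53.9 at P60.

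Of 9 genes of the microvilli and nodal matrix, only Myoc was called between P1 and P60. Myoc, which encodes myocilin, a secreted protein of the nodal matrix, had 0 to 7 counts per library at P1, 9.07 to 11.7 CPM at P14, 27.9 to 83.8 CPM at P24 and 89.8 to 127 CPM at P60 (adjusted p = 2.5e-16). It was called higher in each of the 3 steps from P1 to P24 (adjusted p = 0.047, 4.4e-10 and 2.2e-06), of which Gldn was called in the step from P1 to P5. The lowest P24 value was that of replicate 2. Dag1, the dystroglycan gene, was at 1533 ± 189 CPM at P1 and 1437 ± 104 CPM at P60 (adjusted p = 0.57). Msn, which encodes moesin, a relative of ezrin, was at 338 ± 14.5 and 374 ± 7.23 CPM (adjusted p = 0.09). Ezr fell over the same interval, and the difference between both genes was not tested. Vcan, the versican gene, went from 95.7 ± 23.4 to 51.9 ± 9.34 CPM (adjusted p = 0.0083), short of 2-fold.

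Of 10 juxtaparanodal genes, Lgi3 was called higher and Dlg4 lower between P1 and P60. The potassium channel genes Kcna1 and Kcna2 were called higher between E17 and P1, by 2.99 ± 0.17 and 1.01 ± 0.20 log2 units (adjusted p = 1.2e-13 and 2.9e-04). They reached 374 ± 13.4 and 934 ± 24.2 CPM at P14. Kcna1 was lower at P24, by 0.70 ± 0.16 log2 units (adjusted p = 0.0062), short of 2-fold. At P60 it held 231 ± 12.0 CPM and Kcna2 952 ± 71.8 CPM. All P60 libraries were below all P1 libraries for Kcna1 (adjusted p = 0.14) and above them for Kcna2 (adjusted p = 0.015), neither at 2-fold. Adam22, a receptor for LGI proteins, went from 24.2 ± 1.27 to 42.4 ± 1.74 CPM (0.80 ± 0.26 log2 units, adjusted p = 0.01), and Dlg4, a scaffold protein of the juxtaparanode, fell by 1.15 ± 0.21 log2 units (adjusted p = 2.7e-05). Of 8 related adhesion genes, Cntn3 and Cntnap4 were called lower between P1 and P60. L1cam and Chl1, the relatives of Nrcam and Nfasc, fell between E17 and P1 by 1.22 ± 0.11 and 1.05 ± 0.30 log2 units (adjusted p = 2.3e-09 and 0.0081), where Nrcam and Nfasc rose.

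**Figure D5:**
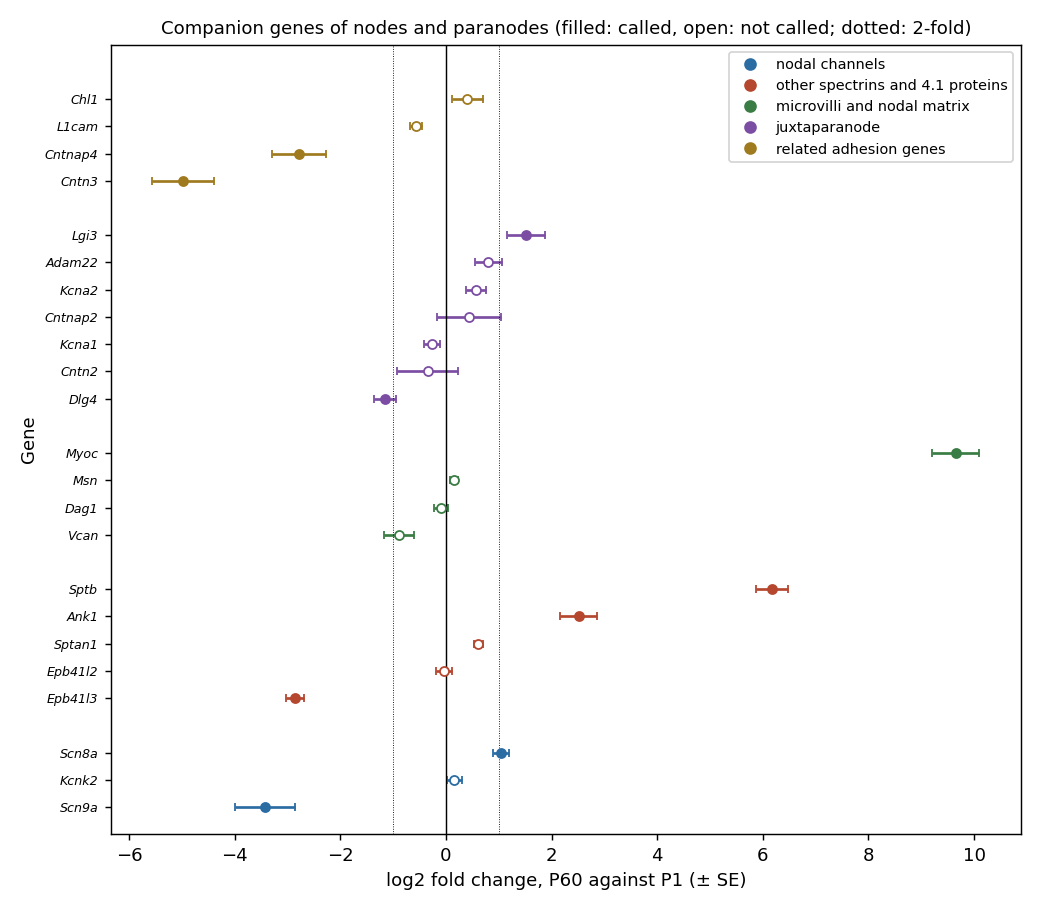
Log2 fold change ± standard error of the further genes named in the text between P1 and P60, grouped in 5 lists, with filled points where called and dotted lines at 2-fold. Sptb, at 6.18 ± 0.31, and Myoc stand at the right, and Cntn3, at -4.98 ± 0.58, Scn9a, at -3.42 ± 0.58, and Epb41l3, at -2.86 ± 0.16, at the left.

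The genes whose log2 CPM followed each of the 9 most closely were found over the 28 libraries by Pearson's r, which here describes shared timing and rests on libraries that fall into 7 stages. Gldn was most like Dusp15 (r = 0.99) and Ncmap (r = 0.99), Nfasc like Plxnb1 (r = 0.99) and Magi2 (r = 0.98), and Nrcam like Selenoi (r = 0.98) and March8 (r = 0.96). Cntn1 was most like Slc35f1 (r = 0.96) and Gcnt1 (r = 0.96), and Cntnap1 had the loosest matches, Prrt2 (r = 0.83) and Asap3 (r = 0.82). Ank2 was most like Usp12 (r = 0.93) and Pfkfb2 (r = 0.91), Ank3 like Adamts5 (r = 0.97) and Iqgap2 (r = 0.95), Sptbn1 like Nr3c1 (r = 0.99) and Ahnak (r = 0.98), and Ezr like Maml3 (r = 0.97) and Ubl3 (r = 0.97). No member was among these nearest genes of another. Among the 9 themselves, Gldn and Nrcam had r = 0.90, Gldn and Nfasc r = 0.83, which was 0.97 over the 24 libraries without E13, and Cntn1 and Nfasc r = -0.66, or -0.91 without E13.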

How the data were processed

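Poly-A RNA of 28 nerve samples was sequenced as stranded single-end libraries. The values are the raw read counts per gene that the authors deposited, without normalization. The submitters' processing notes name STAR 2.6.1c, featureCounts, bcl2fastq and the build GRCm38.p5. The study's methods name GRCh38.p10, a human build name, while the identifiers are of mouse. The use of strand and of multiply aligned reads in counting is not given in the sources used here. Symbols, lengths and coordinates came from GENCODE M21 (GRCm38) for 41519 of 41605 identifiers.

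Genes were filtered by filterByExpr, scaled by TMM and tested in edgeR 4.0.16 (R 4.3.3; estimateDisp, glmQLFit and glmQLFTest, robust), with stage as the only term and all 28 libraries in 1 fit. The 6 successive pairs of stages, P60 against P1 and all stages together were tested. Standard errors are the log2 fold change over the square root of F. Ratios within a library used counts plus 0.5. The samples, 4 per stage, are the unit of the tests. In the fit, the spread of each gene was estimated over all 28 libraries, E13 included, and not only over the stages compared. Where stages are said not to differ beyond their spread, that spread is meant. Fits were also run on simulated data, and the outcome is not given here. The alternatives were other scalings (DESeq2 1.42.0 size factors, library totals), 2 other filters, limma-voom (limma 3.58.1), the DESeq2 Wald test, subsets of libraries, GC trend removal, a replicate block and leaving out each library. Same-numbered libraries did not pair: their deviations correlated at -0.059 to 0.29, and not every pair was over 0.1 in any comparison.

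The members and gene lists were chosen with earlier results of these data known. All 9 members are reported. For each, the 2 protein-coding genes of highest r that are not clone names are named. Of each further list, the 2 highest by mean CPM and the 2 with the largest change between P1 and P60 among genes of at least 5 CPM on average are named, and others named were chosen after their values were seen. Some genes are not reported here.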

Additional observations from a re-analysis of the deposited data

Results flagged for a closer look

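Within the 63 groups of 4 libraries (9 genes at 7 stages), 5 held a library whose gap to the nearest of the others was above Dixon's 95% limit for its share of the group's range, where chance gives about 1 in 20 groups. Gldn at P24 was 510.4 CPM in replicate 2 against 386 to 406 in the others. Cntn1 at P24 was 44.4 CPM in the same library against 29.4 to 31.1. In this library the summed markers of 5 other cell types were the lowest of the stage, at 146 CPM against 333 to 432 (perineurial), 3294 against 5832 to 6333 (mesenchymal), 198 against 268 to 299 (endothelial), 384 against 486 to 549 (pericyte and smooth muscle) and 68.5 against 101 to 112 (immune), while its Schwann cell sum was the highest, at 62219.9 against 48835 to 58708. Its skeletal muscle sum was also the lowest, at 0.889 against 1.73 to 2.56 CPM, and its erythroid sum the highest, at 9.26 against 3.50 to 4.30 CPM, and the part of these differences in both values was not tested. Nfasc at P60 was 607 CPM in replicate 1 against 698 to 709. Ezr at P5 was 271 CPM in replicate 3 against 244 to 249. Ank3 at P1 was 395 CPM in replicate 2 against 376 to 379.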

How the results depend on the processing

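Of 1314 recomputed changes of single members under the alternatives, 1244 kept their direction and call. The counts moved most without a fold change minimum, to 8 members and 19 further genes for P1 against E17, 5 and 14 for P5 against P1, 4 and 13 for P14 against P5, 1 and 8 for P60 against P24, 1 member for P24 against P14, and 25 further genes for P60 against P1. Members called between P1 and P60 were 3 with library totals only and 3 without the filter on low counts, which also left 3 further genes for P5 against P1. For P24 against P14 the further genes called were 4 without E13, without the 3 GC-trend libraries, with only the 2 stages compared and in limma-voom. For P60 against P24 they were 1 with only the 2 stages compared. Where a value below does not show the cause, the cause was not tested.

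Leaving out 1 library gave 5 members for E17 against E13, 5 for P1 against E17, 2 for P5 against P1, 1 for P14 against P5, 0 for P24 against P14, 0 for P60 against P24, 4 to 5 for P60 against P1 and 8 to 9 in the test of all stages, and 30 to 32, 9 to 11, 3 to 5, 7 to 8, 2 to 3, 2 to 4 and 12 to 16 further genes in the same order of comparisons. The ratio differences ran from 1.23 to 1.38 (Gldn to Nrcam), 2.74 to 3.04 (Cntnap1 to Cntn1), 3.18 to 3.43 (Nfasc to Nrcam) and 0.41 to 0.47 (Ank3 to Ank2), and their exact permutation p rose to 0.057, the smallest that 3 against 4 libraries can give. With the replicate block the ratio differences were 1.32, 2.91, 3.30 and 0.43, at an exact permutation p of 0.125, the smallest that 4 pairs can give. The block moved no count of called genes by over 1.5 times, and the numbers do not pair the libraries.

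Changes that turned in sign stayed under 2-fold in each setting, and of these only Nrcam (E17 against E13) passed an adjusted p of 0.05, in limma-voom, without E13 replicate 1 and without the 3 GC-trend libraries. With library totals only, which put the median change of all genes at -0.33, -0.11, -0.19, -0.17, 0.05 and 0.10 over the 6 successive steps and at -0.22 for P60 against P1, they were Gldn at -0.0577 (E17 against E13) and -0.113 (P14 against P5), Ank2 at -0.0158 (P5 against P1), 0.0195 (P24 against P14) and -0.0558 (P60 against P1), Cntnap1 at 0.0207 (P24 against P14) and Sptbn1 at -0.0284 (P5 against P1). In limma-voom they were Gldn at -0.104 and Nrcam at 0.394 (E17 against E13), and Nfasc at -0.00670 and Cntnap1 at 0.0101 (P24 against P14). Without the 3 GC-trend libraries they were Gldn at -0.0421 and Nrcam at 0.287 (E17 against E13) and Nfasc at -0.000433 (P60 against P24). Nrcam (E17 against E13) was 0.0518 with the GC trend removed, 0.0165 with the replicate block and 0.0651 with both. Nfasc (P60 against P24) was -0.00199 with the block and -0.00429 without the filter, and Sptbn1 (P1 against E17) was 0.0276 without the filter and 0.0127 with only the 2 stages compared. With 1 library left out, the range was -0.251 to 0.375 for Gldn and -0.201 to 0.384 for Nrcam (E17 against E13), -0.0470 to 0.0111 for Sptbn1 (P1 against E17), -0.0349 to 0.0767 for Nrcam, -0.0110 to 0.0583 for Nfasc, -0.204 to 0.0275 for Cntnap1 and -0.0680 to 0.00278 for Ank2 (P24 against P14), and -0.0356 to 0.0511 for Nfasc and -0.0300 to 0.0489 for Sptbn1 (P60 against P24). Depth limits Gldn at E13 and E17 (6 to 21 counts) and Cntnap1 (86 to 345 counts).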

Other observations

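Between E13 and E17, 31 of the 44 further genes of the node and its neighbours were called, 11 higher and 20 lower, a share of 70.5% beside 35.5% of all genes. Examples named after their values were seen are the juxtaparanodal partners Cntn2 and Cntnap2, which had 206 ± 44.8 and 36.8 ± 7.85 CPM at E13 and 0.269 ± 0.0774 and 0.37 ± 0.196 CPM at E17, and which stayed under 1 CPM in every later library. Cntn1, the paranodal relative of Cntn2, moved the other way over this step. The summed neuron markers were at 1694 to 3251 CPM at E13 and 123 to 170.2 CPM at E17, and their part was not tested.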
